A study of Rattus norvegicus with 9 samples.

Results

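The collagen genes of the rat kidney were followed on 9 one-colour arrays, 3 each from the inbred strains Dahl S, SHR and Dahl R. Members were the probes whose RefSeq identifier mapped to a rat symbol made of Col, a number, a and a number. The reference gene table lists 44 such genes, and 15 of them had a matched probe on the array, among 13903 genes matched in all. Each of the 15 had 1 probe, printed as 1 spot per array. The 29 without a matched probe, among them Col1a1, Col4a2, Col4a3, Col4a5, Col6a1 and Col18a1, were not analysed here.

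Every kidney came from a male rat of 53 days, weaned at 30 days and then kept on a low-salt diet with 0.3% salt, and all animals shared a birth day. Dahl S (Dahl salt-sensitive) rats become hypertensive when fed salt, SHR (spontaneously hypertensive rats) become hypertensive without added salt, and Dahl R (Dahl salt-resistant) rats were bred from the same stock as Dahl S to resist salt. No group had a salt load, and blood pressure was not analysed here. Each array held Cy3-labelled material from 1 µg of total RNA of 1 animal. Nothing in the labels tells which animals were littermates or were prepared together, and p-values cover only the spread among these samples.

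Collagens are secreted proteins in which chains wind around one another into a helix. Fibrillar chains (types I, II, III, V and XI) assemble into fibrils, and types I, III and V form those of the interstitium. Type IV chains form the sheet-like network of basement membranes, including that of the glomerular filter. Other types coat fibrils, anchor basement membranes or span the cell membrane. Types II, IX and XI are best known together, as the fibril of cartilage.

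Levels are log2 signals relative to the 75th percentile of the array, so a negative value lies below that percentile. Levels of different probes are not compared, because probes differ in how well they bind. The probes were designed on a reference rat sequence, and sequence differences between strains under a probe were not tested. SHR replicate 3 stood apart: 36.3% of its spots were well above background, against 53.7% to 65.5% on the other 8 arrays, and 7.93% were marked as outliers, against 1.49% to 2.62%. The lowest log2 signal that counted as well above background was -2.99 there and -7.51 to -5.92 on the others, so dim probes cannot be read low on that array. The 3 Dahl S arrays were scanned together with Dahl R replicate 1, and SHR replicates 1 and 2 together with Dahl R replicates 2 and 3, while SHR replicate 3 was scanned alone. Dahl S and SHR therefore shared no scan, and a fit with scan as a block links them only through Dahl R. In such a fit SHR replicate 3 carries no weight, and Dahl S is linked to the other arrays by Dahl R replicate 1 alone. As a check of the tissue label, 5 of 5 proximal tubule markers, 2 of 2 measured thick ascending limb markers and 5 of 5 distal tubule and collecting duct markers were well above background on all 9 arrays.

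The region just upstream of the gene is shown for 3 collagens that differed between strains, from RefSeq on build GRCr8. Col4a4 is shown because its start lies 413 bases from that of Col4a3 on the opposite strand, the usual head-to-head order of type IV chains, so that both genes share upstream sequence. Col9a2 and Col11a2 are shown because both were higher in SHR. Each line gives the 250 bases before the start, 5′ to 3′ on the strand of the gene: chr9:91323578-91323827 (minus strand) for Col4a4, chr5:139892548-139892797 (plus strand) for Col9a2 and chr20:4817649-4817898 (minus strand) for Col11a2. In Col4a4 the capitals mark the 88 bases that also lie in the window upstream of Col4a3, and in Col11a2 they mark matches to the GC box letters GGGCGG.
Col4a4: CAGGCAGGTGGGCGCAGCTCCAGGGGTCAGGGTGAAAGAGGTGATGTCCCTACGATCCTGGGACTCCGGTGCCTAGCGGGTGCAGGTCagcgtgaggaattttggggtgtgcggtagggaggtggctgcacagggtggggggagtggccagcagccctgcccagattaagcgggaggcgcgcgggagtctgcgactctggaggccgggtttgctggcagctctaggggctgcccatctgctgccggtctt
Col9a2: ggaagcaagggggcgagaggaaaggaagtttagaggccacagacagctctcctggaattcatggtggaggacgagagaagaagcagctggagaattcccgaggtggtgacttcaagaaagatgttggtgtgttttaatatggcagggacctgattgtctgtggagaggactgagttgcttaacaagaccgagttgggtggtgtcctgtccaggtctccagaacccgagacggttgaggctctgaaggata
Col11a2: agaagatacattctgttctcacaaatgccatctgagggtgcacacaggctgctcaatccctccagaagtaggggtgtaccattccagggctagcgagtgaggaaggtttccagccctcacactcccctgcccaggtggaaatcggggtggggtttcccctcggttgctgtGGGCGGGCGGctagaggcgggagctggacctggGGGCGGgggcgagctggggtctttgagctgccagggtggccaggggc

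Short motifs were looked for on both strands of these windows. The TATA box was searched as TATAAA, the promoter element named after it as CCAAT, the GC box as GGGCGG, and the letters known to bind SOX factors as ACAAAG and also ACAATG. Col11a2 held 3 GC box matches, starting 80, 76 and 47 bases before the start, of which the first pair overlap. No match to any of these letters lay in the windows of Col4a4 or Col9a2, whose GC contents were 66.4% and 52%, against 62.8% in Col11a2 and a median of 51.2% over all windows. Among the windows of all 33469 promoters in the table, 30.5% held a GC box match, 34.0% a CCAAT match, 12.9% a TATA match and 25.3% a match to the SOX letters. Of the 15 collagens, 11 had an entry in this table, and of the 5 past the threshold in any comparison, 4 had one. These matches describe letters in a reference strain and not sites in use.

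Of the 5 collagens past the threshold, 4 differed between SHR and both Dahl strains. By limma, with p-values adjusted over all 16592 tested probes at a threshold of 0.05, 4 of 15 collagens differed between Dahl S and SHR, where 15.7% of all probes did. Col4a4, a chain of the glomerular basement membrane, was higher in Dahl S, and Col2a1, Col9a2 and Col11a2, chains of the cartilage-type fibril, were lower; 7.08% of all probes were higher and 8.62% lower. Between SHR and Dahl R, 5 of 15 differed against 13.0% of all probes: Col2a1, Col9a2 and Col11a2 were higher in SHR (7.56% of all probes) and Col4a4 and the membrane collagen Col13a1 lower (5.49%). Between Dahl S and Dahl R, limma called 0 of 15 (background 1.40%), and 1 collagen, Col13a1, had an unadjusted p under 0.05. Col11a2 reached the filter on dim signal only with its SHR arrays, the strain where it was high, so its calls are a description, and 3 and 4 of the 15 are left in these comparisons without it. The comparisons with SHR share the same 3 SHR arrays, so their calls are not separate evidence. With scan as a block, Col2a1 kept its call against Dahl S (-0.96, adjusted p = 0.0402), while Col4a4 (0.66), Col9a2 (-1.06) and Col11a2 (-1.10) had adjusted p of 0.23, 0.0717 and 0.0904 for Dahl S against SHR. In that fit Col4a4 and Col13a1 also lost the call for SHR against Dahl R (adjusted p = 0.0736 and 0.0526). In another setting, called the percentile over unmarked spots, spots without an outlier mark were averaged to probes and the 75th percentile was taken over probes. It thus changed the unit of the percentile and the filter on dim signal as well. This setting ended all 9 calls and turned none.

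**Figure D1:**
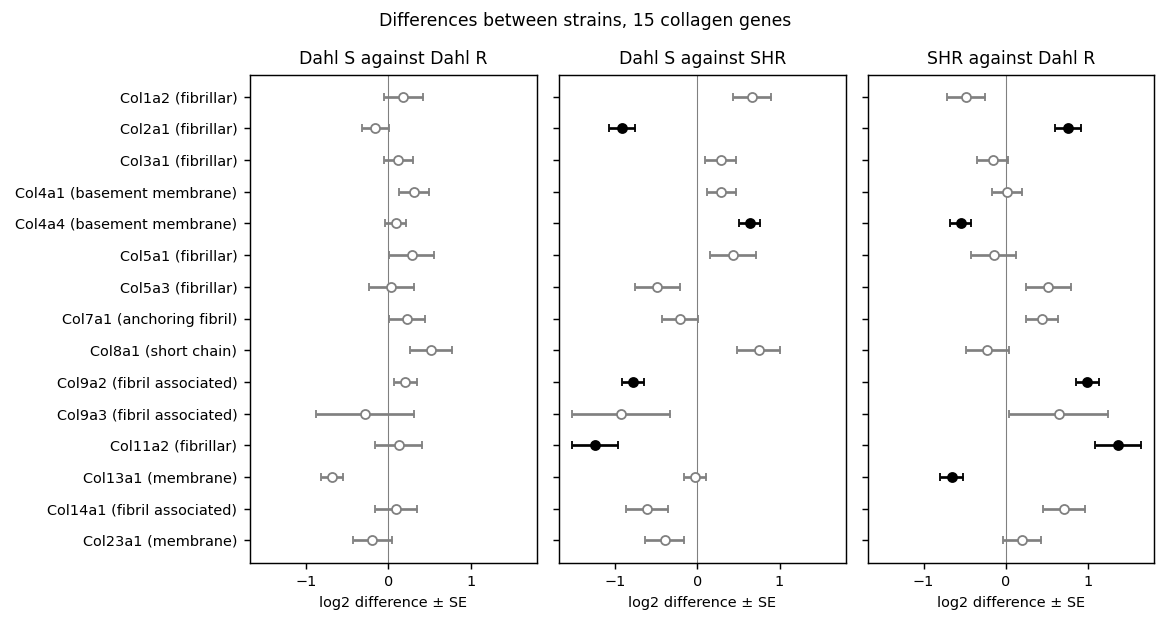
Log2 differences ± SE (x axis) of the 15 collagens, named with their class (y axis), in 3 panels, left to right Dahl S against Dahl R, then Dahl S against SHR, then SHR against Dahl R. Filled points have an adjusted p under 0.05 by limma: 0 in the left panel, 4 in the middle and 5 in the right.

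Values of the strains did not overlap for 6 of 15 collagens between Dahl S and SHR, for 8 of 15 between SHR and Dahl R and for 2 of 15 between Dahl S and Dahl R, against 37.9%, 38.7% and 31.1% of all probes in these comparisons. The median log2 difference of the 15 collagens was -0.20 for Dahl S against SHR, 0.20 for SHR against Dahl R and 0.12 for Dahl S against Dahl R, where all tested probes had medians of -0.09, 0.11 and 0.02. The median of the collagens changed sign with the processing for Dahl S against SHR (0.20 under normexp background correction, 0.30 with the authors' values and -0.51 with the percentile over unmarked spots) and for Dahl S against Dahl R (-0.01 with scan as a block, 0.41 under normexp). With scan as a block, Dahl S against Dahl R rests on Dahl R replicate 1 as the only Dahl R array. In bulk tissue such as whole kidney, fewer cells of a type and less RNA per cell cannot be told apart.

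All 15 collagen probes passed the filter on dim signal, which asks for a value well above background on at least 3 arrays. Col9a3 passed on exactly 3 arrays and Col11a2 on 4. Col2a1, Col5a1, Col8a1 and Col23a1 were well above background on 8 arrays, each missing SHR replicate 3, and the other 9 collagens on all 9. The range over the arrays lay between 0.69 log2 units for Col4a1 and 2.73 for Col9a3.

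Among the 6 fibrillar chains, those of the interstitial fibril did not pass the threshold in any comparison. Col1a2, a chain of type I collagen, the main fibril of scar and interstitium, had log2 signals of 5.88, 5.15 and 5.27 in Dahl S replicates 1, 2 and 3, of 4.98, 4.86 and 4.47 in the SHR replicates and of 5.52, 5.23 and 5.02 in the Dahl R replicates. All 3 SHR values lay below all values of both Dahl strains. The difference was 0.66 ± 0.24 (SE) for Dahl S against SHR (limma adjusted p = 0.0993), -0.49 ± 0.24 for SHR against Dahl R (adjusted p = 0.228) and 0.18 ± 0.24 for Dahl S against Dahl R (adjusted p = 0.912). Without SHR replicate 3 the first of these was 0.51 (adjusted p = 0.161).

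Col3a1, the chain of type III collagen, which accompanies type I in interstitial fibrils, had 6.32, 5.89 and 5.88 in Dahl S, 5.58 and 5.92 in SHR replicates 1 and 2 and 6.02, 5.99 and 5.72 in Dahl R. Its spot on SHR replicate 3 was marked as an outlier and left out. The strains overlapped, with differences of 0.28 ± 0.19 for Dahl S against SHR, -0.16 ± 0.19 for SHR against Dahl R and 0.12 ± 0.17 for Dahl S against Dahl R (adjusted p = 0.356, 0.621 and 0.923). Of the type V chains, which set the diameter of type I fibrils, Col5a1 ranged over 1.36 and Col5a3 over 1.35 log2 units across arrays, and neither passed in any comparison. Beside these chains, 1 of 7 fibroblast and pericyte markers (Dcn) was higher in Dahl S than in SHR and than in Dahl R. Of all probes, 7.08% and 0.705% were higher in these comparisons. The log2 of the summed signal of the 6 markers with a value on every array was 5.49 to 6.03 in Dahl S, 4.38 to 4.86 in SHR and 4.36 to 4.61 in Dahl R, and its part in the collagen values was not tested. Dcn, a proteoglycan that binds collagen fibrils, carried this difference: the sum of the other 5 markers was 3.62 to 4.02 in Dahl S, 3.70 to 3.83 in SHR and 3.50 to 3.70 in Dahl R. Most of the signal in that second sum came from Pdgfra (3.33 to 3.74 in Dahl S, 3.38 to 3.57 in SHR, 3.23 to 3.47 in Dahl R). The sum therefore says little of the dimmer markers.

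**Figure D2:**
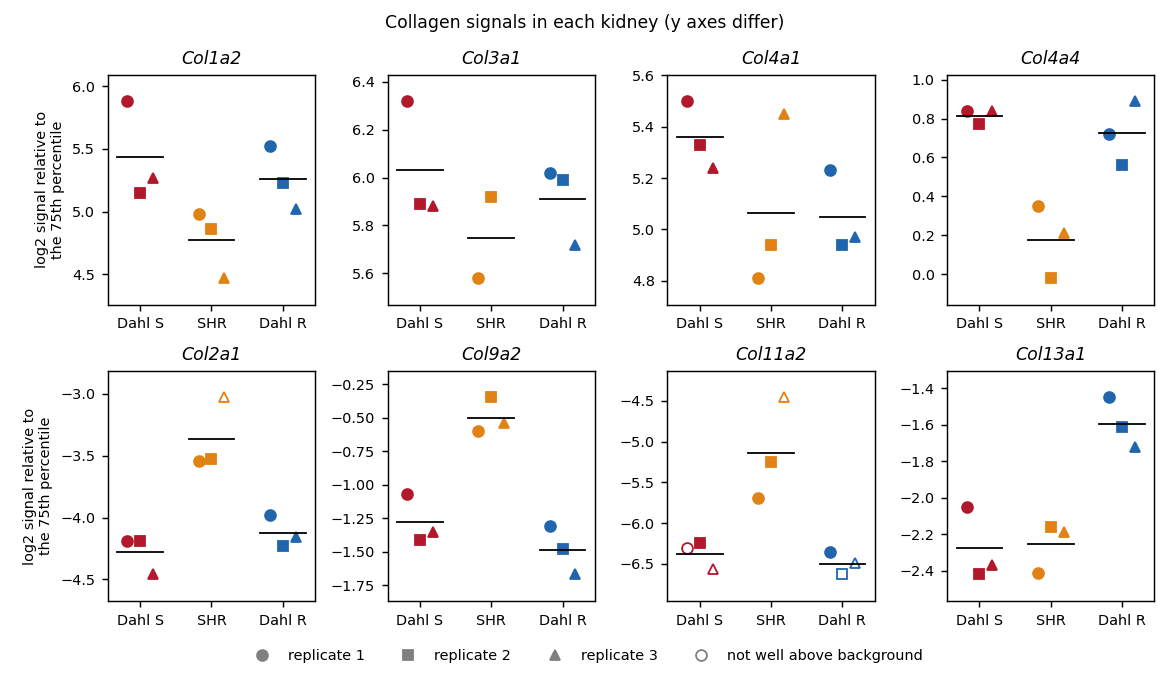
Log2 signal relative to the 75th percentile of the array (y axis, with its own range in each panel) for 8 collagens in Dahl S, SHR and Dahl R kidneys (x axis). Symbols are replicates, bars are strain means and open symbols are values not well above background; Col1a2 and Col4a4 lie lower in all SHR arrays, Col2a1, Col9a2 and Col11a2 higher, and Col13a1 lies highest in Dahl R.

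The other fibrillar chains that passed were Col2a1 and Col11a2, both higher in SHR. Col2a1, the chain of type II collagen, had -4.19, -4.19 and -4.46 in Dahl S, -3.54, -3.53 and -3.03 in SHR and -3.98, -4.23 and -4.16 in Dahl R. Every SHR value lay above every Dahl value, but the highest, on SHR replicate 3, was not well above background there. Col2a1 was 1.88-fold lower in Dahl S than in SHR (-0.91 ± 0.16, limma adjusted p = 0.00974). It was 1.69-fold higher in SHR than in Dahl R (0.75 ± 0.16, adjusted p = 0.0235). The SHR mean in both takes in all 3 arrays, of which 2 were well above background. Dahl S and Dahl R differed by -0.16 ± 0.16 (adjusted p = 0.866).

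Without SHR replicate 3, the Col2a1 differences were -0.74 for Dahl S against SHR (adjusted p = 0.00449) and 0.59 for SHR against Dahl R (adjusted p = 0.0126). Among arrays scanned together, SHR replicates 1 and 2 exceeded Dahl R replicates 2 and 3 by 0.66 ± 0.08 (adjusted p = 0.0245). Under normexp background correction of the spot and local background signals, the call ended in both comparisons, with -0.00 ± 0.52 for Dahl S against SHR and 0.78 ± 0.52 for SHR against Dahl R. The Col2a1 call held in 16 of 18 alternatives for Dahl S against SHR and in 12 of 19 for SHR against Dahl R, where leaving out any 1 Dahl R array ended it (adjusted p = 0.0546, 0.0985 and 0.0848 without replicates 1, 2 and 3).

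Col11a2, a chain of type XI collagen, which forms the core of cartilage fibrils together with type II, was near background in the Dahl strains. It had -6.31, -6.25 and -6.56 in Dahl S, -5.69, -5.25 and -4.46 in SHR and -6.36, -6.63 and -6.49 in Dahl R, and was well above background only on Dahl S replicate 2, SHR replicates 1 and 2 and Dahl R replicate 1. The Dahl arrays alone would not have reached the 3 that the filter asks for, so Col11a2 was tested only through the strain where it was high, and the p-values below are not independent of that selection. The SHR values all lay above the Dahl values, and the highest of them came from the array where it was not well above background. The log2 difference was -1.24 ± 0.28 for Dahl S against SHR (adjusted p = 0.024) and 1.36 ± 0.28 for SHR against Dahl R (adjusted p = 0.0196); no fold is given, since each Dahl strain had 1 array well above background. Without SHR replicate 3 these differences were -0.90 (adjusted p = 0.00793) and 1.03 (adjusted p = 0.00549). Among arrays scanned together, SHR against Dahl R gave 1.09 ± 0.18 (adjusted p = 0.0437). The direction was not kept everywhere: normexp gave 0.65 ± 0.71 for Dahl S against SHR, and quantile normalization ended both calls (-0.48 and 0.67). The call held in 6 of 17 alternatives for Dahl S against SHR and ended without any 1 Dahl S array (adjusted p = 0.0616, 0.0682 and 0.0845 without replicates 1, 2 and 3) or without SHR replicate 2 (0.0519). For SHR against Dahl R it held in 10 of 18 and ended without any 1 Dahl R array (0.0596, 0.0809 and 0.067).

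Of 4 cartilage markers set beside these chains, Acan and Matn1 had a probe, and Acan did not pass the filter on dim signal. Matn1, a cartilage matrix protein, moved the other way from Col2a1, Col9a2 and Col11a2: it had 2.35, 2.20 and 2.38 in Dahl S, -0.70, -1.27 and -1.96 in SHR and 1.77, 2.23 and 2.08 in Dahl R. It was 12.3-fold higher in Dahl S than in SHR (3.62 ± 0.29, adjusted p = 0.000236) and 10.1-fold lower in SHR than in Dahl R (-3.34 ± 0.29, adjusted p = 0.000415). Its part in the collagen values was not tested.

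Of the 2 basement membrane chains on the array, Col4a4 passed the threshold and Col4a1 did not; the difference between them was not tested. Col4a4 belongs to the network of the mature glomerular basement membrane, which it builds with Col4a3 and Col4a5. It had 0.84, 0.77 and 0.84 in Dahl S, 0.35, -0.02 and 0.21 in SHR and 0.72, 0.56 and 0.89 in Dahl R, and was well above background on all 9 arrays. All SHR values lay below all Dahl values. Col4a4 was 1.56-fold higher in Dahl S than in SHR (0.64 ± 0.13, adjusted p = 0.0149) and 1.46-fold lower in SHR than in Dahl R (-0.55 ± 0.13, adjusted p = 0.0309), while Dahl S and Dahl R differed by 0.09 ± 0.13 (adjusted p = 0.923).

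Leaving out SHR replicate 3 gave 0.65 (adjusted p = 0.0148) and -0.56 (adjusted p = 0.0285) for these comparisons of Col4a4 with SHR. Within the scan that held both strains, SHR against Dahl R gave -0.56 ± 0.20 (adjusted p = 0.153), with 2 arrays each. The size stayed close under normexp (0.62 and -0.55) but both calls ended (adjusted p = 0.11 and 0.197). The Col4a4 call held in 13 of 18 alternatives for Dahl S against SHR, ending without Dahl S replicate 2 or 3 (adjusted p = 0.0524 and 0.0554). For SHR against Dahl R it held in 8 of 19. It ended there without any 1 Dahl R array (adjusted p = 0.101, 0.0525 and 0.113 without replicates 1, 2 and 3), without Dahl S replicate 2 or 3 (0.0604 and 0.058) and without SHR replicate 2 (0.0689). Podocytes are the main source of these chains in the adult glomerulus. Of 5 podocyte markers, 0 were higher and 1 (Podxl) was lower in Dahl S than in SHR by limma. The shares of all probes were 7.08% and 8.62%. Between SHR and Dahl R 0 passed, against 13.0% of all probes. Without SHR replicate 3, Nphs1 was also lower in Dahl S than in SHR (adjusted p = 0.016) and higher in SHR than in Dahl R (adjusted p = 0.00814). In that setting 26.2% and 22.8% of all probes passed. The signals of the 3 podocyte markers with a value on every array were summed. The log2 of this sum was 2.21 to 2.28 in Dahl S, 2.35 to 3.28 in SHR and 2.13 to 2.22 in Dahl R. On SHR replicate 3, Nphs1 had 3.07, against 1.48 and 1.53 on SHR replicates 1 and 2, while Wt1 was lowest there (0.32). The part of this sum in the Col4a4 values was not tested.

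Col4a1, a chain of the ubiquitous type IV network, had 5.50, 5.33 and 5.24 in Dahl S, 4.81, 4.94 and 5.45 in SHR and 5.23, 4.94 and 4.97 in Dahl R. SHR replicates 1 and 2 lay below Dahl S while SHR replicate 3 lay among it. The differences were 0.30 ± 0.18 for Dahl S against SHR (adjusted p = 0.301), 0.02 ± 0.18 for SHR against Dahl R (adjusted p = 0.965) and 0.31 ± 0.18 for Dahl S against Dahl R (adjusted p = 0.655). Without SHR replicate 3, Col4a1 was higher in Dahl S than in SHR (0.49 ± 0.12, adjusted p = 0.027), so that array decides this call.

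Col9a2, a chain of type IX collagen, which coats fibrils and links them to other matrix, passed in both comparisons with SHR. It had -1.07, -1.41 and -1.35 in Dahl S, -0.60, -0.35 and -0.54 in SHR and -1.31, -1.48 and -1.67 in Dahl R, well above background on all 9 arrays. The SHR values stood apart above both Dahl strains. Col9a2 was 1.72-fold lower in Dahl S than in SHR (-0.78 ± 0.14, adjusted p = 0.00955) and 1.98-fold higher in SHR than in Dahl R (0.99 ± 0.14, adjusted p = 0.00385), and Dahl S and Dahl R differed by 0.21 ± 0.14 (adjusted p = 0.727). The difference between SHR and Dahl R kept its call in 18 of 19 alternative settings, with values from 0.90 to 1.28. The exception was the percentile over unmarked spots (adjusted p = 0.0702). Several settings left the difference itself at 0.99, such as keeping outlier spots, other filters on dim probes or leaving out a Dahl S array. They changed only its spread or adjustment, so the settings are not separate checks. Among arrays scanned together, SHR against Dahl R gave 1.09 ± 0.14 (adjusted p = 0.0265). For Dahl S against SHR the call held in 15 of 18 alternatives, and normexp ended it (-0.56 ± 0.17, adjusted p = 0.15).

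**Figure D3:**
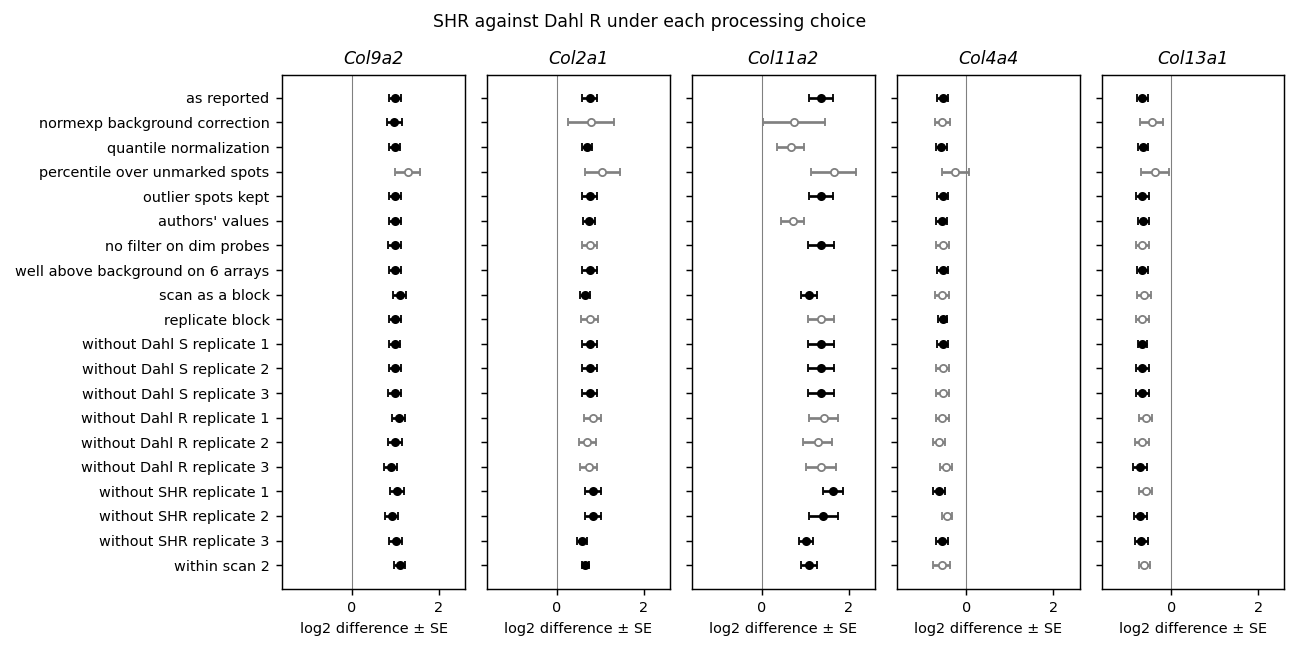
Log2 difference ± SE of SHR against Dahl R (x axis) for the 5 collagens past the threshold, under each processing choice (y axis). Filled points have an adjusted p under 0.05; Col9a2 is filled in all rows except the percentile over unmarked spots, and Col11a2 has no value under the filter that asks for 6 arrays well above background, which it did not pass.

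Col9a3, another chain of type IX, was well above background on 1 array of each strain and did not pass in any comparison. Its value on SHR replicate 3 was -4.14, and the other 8 arrays lay between -6.87 and -6.26. Col14a1, which binds the surface of fibrils, had 0.68, 1.13 and 0.89 in SHR and 0.34, 0.13 and 0.11 in Dahl R, without overlap. Its difference of 0.70 ± 0.25 did not pass (adjusted p = 0.119), and neither did -0.61 ± 0.25 for Dahl S against SHR (adjusted p = 0.147). Dahl S replicate 1, at 0.89, stood above the other Dahl S values of -0.04 and 0.02. Without it both differences passed by limma (adjusted p = 0.0228 and 0.0155). For Dahl S against SHR the difference became -0.91. That of SHR against Dahl R stayed at 0.70, and only its spread or adjustment changed.

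Col13a1, a collagen held in the cell membrane, had its highest values in Dahl R. It had -2.05, -2.42 and -2.37 in Dahl S, -2.41, -2.16 and -2.19 in SHR and -1.45, -1.61 and -1.72 in Dahl R. Dahl R lay above both other strains, which overlapped each other. SHR against Dahl R was 1.58-fold lower (-0.66 ± 0.14, adjusted p = 0.0199). Dahl S against Dahl R had a difference of -0.68 ± 0.14 with an adjusted p of 0.068, which was 0.0372 without SHR replicate 3 and 0.0435 with quantile normalization. Dahl S and SHR differed by -0.02 ± 0.14 (adjusted p = 0.918). Among arrays scanned together, SHR against Dahl R gave -0.62 ± 0.12 (adjusted p = 0.0589), and normexp ended its call (-0.45 ± 0.26, adjusted p = 0.59). That call held in 10 of 19 alternatives and ended without Dahl R replicate 1 or 2 or SHR replicate 1 (adjusted p = 0.0825, 0.0738 and 0.0508).

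Of the remaining collagens, none passed with all 9 arrays. Col23a1, also a membrane collagen, gave -0.39 ± 0.23 for Dahl S against SHR (adjusted p = 0.294), and -0.65 without SHR replicate 3 (adjusted p = 0.0289). Col8a1, a short chain of vessel walls and of the subendothelial matrix, gave 0.75 ± 0.26 (adjusted p = 0.0961), with -1.59, -2.47 and -2.50 in Dahl S against -3.12, -2.96 and -2.72 in SHR. Col7a1, the anchoring fibril chain, gave 0.43 ± 0.19 for SHR against Dahl R (adjusted p = 0.205), and its outlier-marked spot on Dahl S replicate 3 was left out.

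Without SHR replicate 3, 6 of 15 collagens differed between Dahl S and SHR, 5 of 15 between SHR and Dahl R and 1 of 15 between Dahl S and Dahl R, against 26.2%, 22.8% and 4.59% of all probes. Arrays within a strain also differed. Dahl R replicate 1 had the highest value of its strain in 12 of 15 collagens, where it was highest for 39.2% of all tested probes. In Dahl S, replicate 1 was highest in 9 of 14 collagens with 3 values (62.6% of all probes). In SHR, replicate 3 was highest in 5 of 14 (60.2%). Dahl R replicate 1 and SHR replicate 3 were scanned apart from the rest of their strains, so animal and scan cannot be told apart for them.

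**Figure D4:**
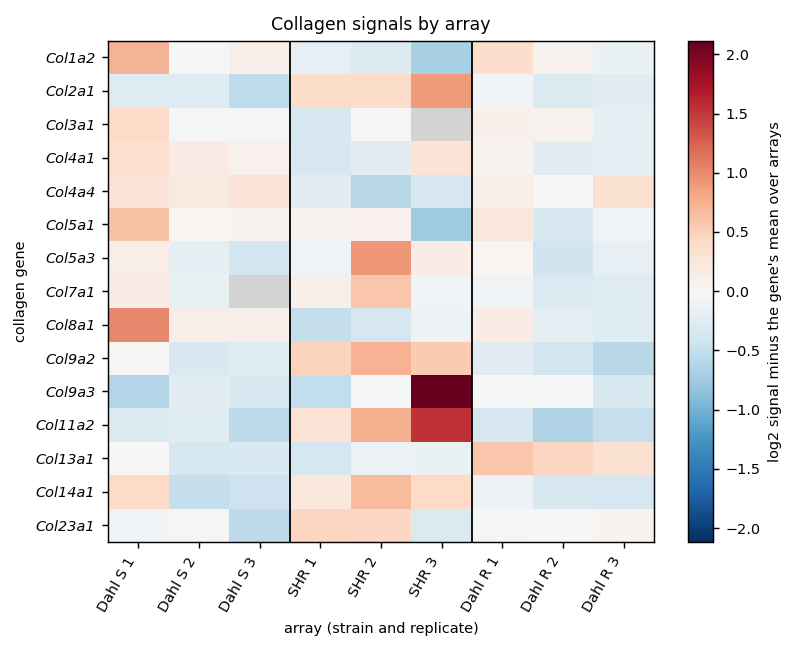
Log2 signal of each collagen (rows) minus its mean over arrays, on each of the 9 arrays (columns, by strain and replicate). Red is above and blue below the mean of the gene; grey cells are outlier-marked spots, and the darkest cell is Col9a3 on SHR replicate 3, where it was not well above background.

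Genes that make, cut, bind or assemble with collagens were taken from 6 lists of 97 genes, of which 61 were tested. Of these, 9 (14.8%) were higher and 7 (11.5%) lower in Dahl S than in SHR, where 7.08% of all probes were higher and 8.62% lower. Between SHR and Dahl R, 6 (9.84%) were higher and 4 (6.56%) lower in SHR, against 7.56% and 5.49% of all probes. Between Dahl S and Dahl R, 3 (4.92%) were higher and 0 lower in Dahl S, against 0.705% and 0.699%. The 7 lower in Dahl S and the 6 higher in SHR include Itga10. That gene reached the filter on dim signal only with its SHR arrays, where it was high. These shares are given as a description. In all, 18 passed in at least 1 comparison. The share of all probes that did so was not counted, so the 18 cannot be set against a background. The median log2 difference of the 61 was 0.06 for Dahl S against SHR, 0.10 for SHR against Dahl R and 0.15 for Dahl S against Dahl R.

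Of 21 genes of collagen synthesis and processing, 4 were higher and 2 lower in Dahl S than in SHR, 3 were higher and 3 lower in SHR than in Dahl R, and 1 was higher in Dahl S than in Dahl R, to be read against the same shares of all probes. The P3h genes of this list, which act on collagen chains in the endoplasmic reticulum, did not move one way. P3h4, which works with P3h3 and a lysyl hydroxylase in mice, had -1.99, -2.51 and -2.21 in Dahl S, -4.56, -4.32 and -4.76 in SHR and -2.03, -2.08 and -2.25 in Dahl R. SHR lay far below both Dahl strains, and P3h4 was 4.96-fold higher in Dahl S than in SHR (2.31 ± 0.17, adjusted p = 0.000142) and 5.38-fold lower in SHR than in Dahl R (-2.43 ± 0.17, adjusted p = 0.000126), with 2 of 3 SHR arrays well above background.

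P3h1, the enzyme that modifies a proline of the type I helix, was lowest in Dahl R, with 1.68, 1.66 and 1.74 in Dahl S, 2.03, 1.85 and 1.75 in SHR and 0.99, 0.97 and 1.09 in Dahl R. It was 1.60-fold higher in Dahl S than in Dahl R (0.68 ± 0.10, adjusted p = 0.0186) and 1.82-fold higher in SHR than in Dahl R (0.86 ± 0.10, adjusted p = 0.00145). Both calls of P3h1 ended under normexp (adjusted p = 0.46 and 0.109), where both calls of P3h4 held (adjusted p = 0.0139 and 0.0356). P3h2, which acts on type IV chains, was 1.80-fold lower in Dahl S than in SHR (adjusted p = 0.00691) and 1.69-fold higher in SHR than in Dahl R (adjusted p = 0.0116), on 2 usable SHR arrays. P3h3 was 1.71-fold higher in Dahl S than in SHR (adjusted p = 0.0366).

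Loxl2, which cross-links collagens, had 0.44, -0.24 and -0.11 in Dahl S, -1.92, -2.46 and -3.06 in SHR and -0.23, -0.57 and -0.74 in Dahl R. All SHR values lay below all Dahl values. Loxl2 was 5.71-fold higher in Dahl S than in SHR (2.51 ± 0.31, adjusted p = 0.00183) and 3.91-fold lower in SHR than in Dahl R (-1.97 ± 0.31, adjusted p = 0.00631), with 2 of 3 SHR arrays well above background.

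The other 3 genes of this list past the threshold are named after their values were seen. Smaller differences of 1.30-fold to 1.50-fold held for P4ha1 (higher in Dahl S than in SHR), P4ha2 (lower in SHR than in Dahl R) and Plod3 (lower in Dahl S than in SHR, higher in SHR than in Dahl R). The first pair encode catalytic subunits of the enzyme that stabilises the collagen helix, and Plod3 modifies its lysines.

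**Figure D5:**
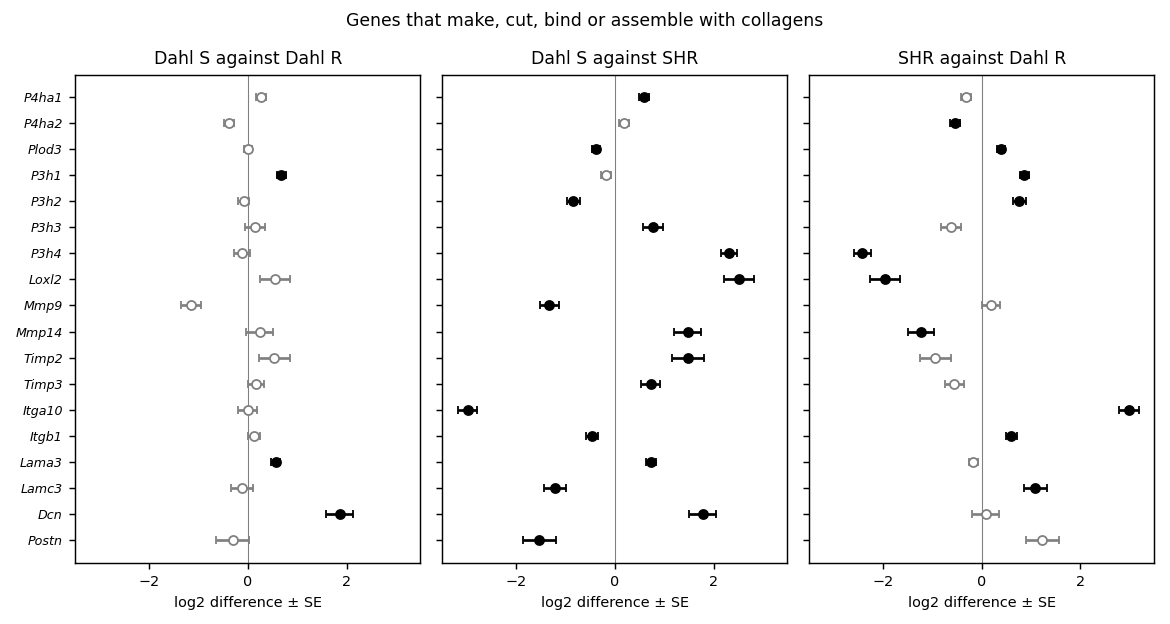
Log2 differences ± SE (x axis) of the 18 genes of collagen synthesis, breakdown, binding and assembly that passed in at least 1 comparison (y axis), in the same 3 panels as for the collagens, with the comparison above each. Filled points have an adjusted p under 0.05; P3h4 and Itga10 lie farthest from 0 in SHR against Dahl R.

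Of 11 tested genes of collagen breakdown and its inhibitors, 3 were higher and 1 lower in Dahl S than in SHR, 1 was lower in SHR than in Dahl R and 0 passed between Dahl S and Dahl R by limma, against the shares of all probes given above for the 61 genes. Mmp14, a membrane-bound protease that cuts fibrillar collagen, had 1.90, 1.48 and 1.53 in Dahl S, -0.04, -0.29 and 0.82 in SHR and 1.48, 1.43 and 1.31 in Dahl R. Every SHR kidney lay below every Dahl kidney. Mmp14 was 2.78-fold higher in Dahl S than in SHR (1.47 ± 0.27, adjusted p = 0.0109) and 2.36-fold lower in SHR than in Dahl R (-1.24 ± 0.27, adjusted p = 0.0247). Normexp ended both calls (1.33, adjusted p = 0.0533, and -1.22, adjusted p = 0.0879). The protease inhibitors Timp2 and Timp3 were 2.79-fold and 1.65-fold higher in Dahl S than in SHR (adjusted p = 0.0188 and 0.0482), Timp2 with 2 of 3 SHR arrays well above background and Timp3 on 2 usable SHR arrays. The gene that was lower was Mmp9, a protease that cuts denatured collagen and type IV collagen, with -0.24 and 0.22 in the 2 usable Dahl S arrays, 1.30, 1.41 and 1.25 in SHR and 1.45, 0.98 and 0.99 in Dahl R. Both Dahl S values lay below all others, and Mmp9 was 2.52-fold lower in Dahl S than in SHR (-1.33 ± 0.20, adjusted p = 0.00679).

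Of 6 tested collagen receptors, 2 were lower in Dahl S than in SHR (8.62% of all probes) and higher in SHR than in Dahl R (7.56%). Itga10, an integrin subunit that binds collagen and is known from cartilage, had -6.14, -5.82 and -6.49 in Dahl S, -3.32, -3.04 and -3.11 in SHR and -5.89, -6.17 and -6.38 in Dahl R. SHR lay far above the Dahl strains, each of which had 1 array well above background, so only the log2 differences are given: -2.99 ± 0.20 for Dahl S against SHR (adjusted p = 0.000104) and 2.99 ± 0.20 for SHR against Dahl R (adjusted p = 0.000104). With 2 of 3 SHR arrays well above background, Itga10 also reached the filter only through SHR, where it was high, so these p-values are not independent of that selection. Normexp ended both calls (-0.60 ± 0.67 and 1.96 ± 0.67). Itgb1, the subunit that pairs with it, was 1.38-fold lower in Dahl S than in SHR (adjusted p = 0.0324) and 1.51-fold higher in SHR than in Dahl R (adjusted p = 0.0155).

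Of 6 tested basement membrane partners, the laminin chain Lama3 had -0.99, -1.04 and -1.15 in Dahl S, -1.69, -1.83 and -1.86 in SHR and -1.69, -1.67 and -1.52 in Dahl R. It was 1.66-fold higher in Dahl S than in SHR (0.74 ± 0.10, adjusted p = 0.00242) and 1.48-fold higher in Dahl S than in Dahl R (0.56 ± 0.10, adjusted p = 0.037). Another laminin chain, Lamc3, passed in both comparisons with SHR (-1.21 ± 0.22 for Dahl S against SHR and 1.09 ± 0.22 for SHR against Dahl R), but was near background and turned in direction with quantile normalization (0.0135 and -0.0795). Among 8 fibril partners, 1 was higher and 1 lower in Dahl S than in SHR (7.08% and 8.62% of all probes). Against Dahl R, 1 was higher in Dahl S (0.705% of all probes). Postn, a matrix protein that promotes cross-linking, was 2.90-fold lower in Dahl S than in SHR (-1.53 ± 0.34, limma adjusted p = 0.0205). Dcn was the gene that was higher in both comparisons. Of 9 tested profibrotic signals reported here, 0 passed in any comparison by limma, and 0 had an unadjusted p under 0.05. Of all probes, 15.7% passed for Dahl S against SHR, 13.0% for SHR against Dahl R and 1.40% for Dahl S against Dahl R. Without SHR replicate 3, Ccn2 was higher in Dahl S than in SHR by limma (0.45, adjusted p = 0.0435), where 26.2% of all probes passed.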

How the data were processed

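Kidney RNA of 9 rats was measured on Agilent one-colour arrays, 1 per animal. Per the file headers, the scanner output was made with Agilent Feature Extraction 10.5.1.1, a version also in the submitters' processing notes. Its processed signal is an intensity that the authors deposited after background subtraction, spatial detrending and a floor, with no scaling between arrays. The authors also deposited a table of log2 values whose normalization is not given in the sources used here, and it served only as an alternative.

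Here the signal was divided by the 75th percentile over all non-control spots of its array and log2-transformed. Spots marked as outliers were set to missing. A probe entered the test with a share of at least 0.5 of its spots well above background on 3 or more arrays, and with a usable spot in every strain. Of 24684 probes, 14294 matched 1 gene symbol through their RefSeq identifier and 16592 were tested. limma 3.58.1 in R 4.3.3 was fitted with strain as the only term over all 9 arrays, with Benjamini-Hochberg adjustment over all tested probes at 0.05. On data simulated for Dahl S against Dahl R over 16592 probes, it recovered 49 of 100 probes shifted by a log2 difference of 1 and 77 of 100 shifted by 2, and called 12 unchanged probes.

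Values on every array are given for collagens past the threshold and for the type I, III and IV chains. From each partner list, up to 4 genes past the threshold with the largest change are named in each comparison, and P4ha1, P4ha2 and Plod3 are named beside them. Array values are printed for some of the named partners. The members, gene lists and tests were chosen with earlier results of these data known. 1 gene of these lists is not reported here, and the counts leave it out. Replicate numbers did not pair the samples: deviations of arrays of different strains with the same number correlated at -0.164 to 0.068. The number of arrays limits the precision. Alternatives were normexp background correction (offset 50), quantile normalization, the percentile over unmarked spots, keeping outlier spots and the authors' log2 values. Further ones were other filters on dim probes, scan or replicate number as a block, and leaving out each array. The percentile over unmarked spots was taken over probe averages, not over spots, and its filter on dim signal also left marked spots out.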

Additional observations from a re-analysis of the deposited data

How the results depend on the processing

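The count of collagens past the threshold depended on the processing. For Dahl S against SHR it was 4 as reported, 0 under normexp and 0 with the percentile over unmarked spots. It was 1 with scan as a block, and 2 to 6 when 1 array was left out. For SHR against Dahl R it was 5 as reported, 1 under normexp, 0 with that percentile, 2 with no filter on dim probes, 3 with scan as a block, and 1 to 6 when 1 array was left out. For Dahl S against Dahl R it was 0 as reported, 1 with quantile normalization, and 0 to 1 when 1 array was left out. The replicate number as a block, which did not pair the samples, gave 4, 2 and 0 in these comparisons. Over all probes the counts for Dahl S against SHR, SHR against Dahl R and Dahl S against Dahl R were 2605, 2165 and 233 as reported, 550, 416 and 43 under normexp, 601, 477 and 38 with the percentile over unmarked spots, 4345, 3772 and 761 without SHR replicate 3, 866, 2648 and 164 with scan as a block, 1902, 1424 and 75 with the replicate block, and 1491, 1188 and 93 with no filter. Within the scan of Dahl S and Dahl R replicate 1, 32 probes passed. The percentile over unmarked spots moved the median of all probes by 0.26 for SHR against Dahl R and by -0.27 for Dahl S against SHR, and normexp moved that of Dahl S against SHR by 0.20. Over 165 alternative runs of the 9 collagen differences past the threshold, 108 kept the call, 56 kept only the direction and 1 turned: Col11a2 for Dahl S against SHR at 0.65 under normexp. Of 457 runs of 25 differences of partner genes, 323 kept the call, 129 kept only the direction and 5 turned, all of Lamc3. It turned for Dahl S against SHR (0.54 under normexp, 0.0135 with quantile normalization, 0.0193 with the authors' values) and for SHR against Dahl R (-0.0795 with quantile normalization, -0.0844 with the authors' values). Of the 36 collagen differences not past the threshold, 21 changed sign and 7 passed under at least 1 alternative. The cause of these changes was not tested. Some alternatives left the difference of a gene as it was and changed only its spread or adjustment. The runs are therefore not separate checks. Signals near background limit Col9a3, Col11a2, Itga10 and Lamc3, which were well above background on 3, 4, 4 and 5 of the 9 arrays.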
